A study of Mus musculus with 14 samples.

Results

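The 6 genes of the MLL and SET1 family of histone H3 lysine 4 (H3K4) methyltransferases were followed in mouse pluripotent cells: Kmt2a (Mll1), Kmt2b (Mll2), Kmt2c (Mll3), Kmt2d (Mll4), Setd1a and Setd1b. They were taken by gene symbol from a table of RNA-seq read counts for 24015 genes, and all 6 were found, counted in every library and kept among the 16247 genes tested. RNA came from 14 libraries, 2 in each of 7 groups. MM401 day 3 and MM401 P2 were epiblast stem cells (EpiSC) moved to LIF medium with serum replacement and 100 µM MM401, sampled after 3 days or after 6 days at passage 2. Reverted cells (rES) were grown in 25 µM MM401 once past passage 3 and taken at passage 6 (rES p6) or 30 (rES p30). A further group, rES p30 without MM401, was grown to passage 30 without the compound. Embryonic stem cells (ESC), cultured on feeder cells with LIF and 15% serum replacement, stand for the naive state of pluripotency. EpiSC, cultured with 20% serum replacement and 10 ng/ml bFGF, stand for the primed state. ESC, EpiSC and the short treatments carry the genotype CD1/JF1, and the rES carry CD1-deltaTSIX/JF1. LIF and MM401 were introduced together and none of the 7 groups is EpiSC moved to LIF alone, so medium and compound cannot be told apart in a comparison with EpiSC, nor can line and state where rES are set against either cell type. No source used here says whether the rES are a single line or clone, and the passage label P2b given to the second MM401 P2 library alone is not explained.

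These enzymes place methyl groups on H3K4 through a shared SET domain, and each needs the same small core, WRAD, made of Wdr5, Rbbp5, Ash2l and Dpy30. The family falls into 3 pairs. Kmt2a and Kmt2b work with menin at promoters, Kmt2a being known for holding Hox genes active and Kmt2b for H3K4 trimethylation at developmental promoters of ES cells. Kmt2c and Kmt2d monomethylate H3K4 at enhancers together with the demethylase Kdm6a, and Setd1a and Setd1b, recruited through Cxxc1 and Wdr82, are linked to trimethylation at active promoters. MM401 blocks the contact between Mll1 and Wdr5 on which Mll1 activity depends. It acts on the protein, and the values below are RNA.

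The RefSeq stretches upstream of Kmt2c, Kmt2a and Setd1a are shown because Kmt2c varied most between the groups, Setd1a varied least, and Kmt2a encodes the protein that MM401 targets. Each is written 5′ to 3′ on the strand of its gene, in build GRCm38.p6, and covers the part of a 250-base RefSeq promoter window that lies outside the gene's annotated span. Capitals mark GGGCGG on either strand (CCGCCC), the GC box read by Sp and Klf factors.
Kmt2c, chr5:25498856-25499033, minus strand: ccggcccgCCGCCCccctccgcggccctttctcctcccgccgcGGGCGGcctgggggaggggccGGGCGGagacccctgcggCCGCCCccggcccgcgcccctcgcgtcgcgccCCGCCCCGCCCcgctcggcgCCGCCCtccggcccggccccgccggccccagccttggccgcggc
Kmt2a, chr9:44881353-44881539, minus strand: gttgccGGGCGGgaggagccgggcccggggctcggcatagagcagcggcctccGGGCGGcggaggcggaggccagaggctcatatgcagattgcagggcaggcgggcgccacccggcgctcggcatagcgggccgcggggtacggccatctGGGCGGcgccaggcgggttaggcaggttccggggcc
Setd1a, chr7:127777139-127777388, plus strand: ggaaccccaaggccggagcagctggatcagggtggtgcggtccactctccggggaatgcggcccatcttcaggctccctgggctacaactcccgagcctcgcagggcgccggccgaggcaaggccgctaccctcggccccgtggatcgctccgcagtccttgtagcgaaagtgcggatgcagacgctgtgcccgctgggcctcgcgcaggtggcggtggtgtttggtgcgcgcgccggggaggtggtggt
In the whole 250-base window GGGCGG occurred 12 times for Kmt2c, 4 times for Kmt2a and 0 times for Setd1a, with neighbouring matches allowed to share a base. Of these, 7 for Kmt2c and 3 for Kmt2a lie in the printed stretches, and the rest lie inside the annotated span. GGGCGG occurred 4 times for Kmt2d, whose window lies inside its annotated span and is not printed. At least 1 match was found in 32.7% of 32851 mouse promoters of the same length. All 4 windows were rich in CG, with 48 in Kmt2c, 29 in Kmt2a, 26 in Kmt2d and 25 in Setd1a, against a median of 6 over all promoters. CACGTG and ATTTGCAT, the letters of an E-box and of an octamer motif, were in none of the 4 windows on either strand, and are held by 6.02% and 1.6% of all promoters. CCGGAA, the core read by Ets factors, was found once, in the Kmt2a window, and is held by 12% of promoters. These are letter matches and say nothing about whether a factor binds. Kmt2b and Setd1b had no entry in the table used.

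Libraries held 20831588 to 23677089 counts, except MM401 day 3 (113221270 and 116086115) and MM401 P2 (74952496 and 80383376). The 6 genes were well counted everywhere, from 1050 counts of Setd1b in EpiSC to 23383 of Kmt2d at MM401 day 3. Levels below are counts relative to TMM-scaled library size, in CPM, and the 2 libraries of a group differed by at most 11.6% for any of the 6 genes. A set of 8 naive markers summed to 3126 CPM in ESC against 530.2 in EpiSC, and to 2083 to 4786 CPM in the treated and rES groups. The 7 primed markers did not separate ESC from EpiSC as a list, since 3 were lower in ESC (Sox11 at -2.46, Pou3f1 at -1.36 and Dnmt3b at -0.76 on the log2 scale) and 3 were higher (Otx2 at 1.81, Fgf5 at 1.47 and Zic2 at 0.46). They summed to 879 CPM in ESC and 1138 CPM in EpiSC. A set of 20 fibroblast markers, chosen to look for feeder cells, summed to 17973 CPM at MM401 P2 and 6186 CPM at day 3. Whether their RNA came from feeder cells or other fibroblast-like cells was not tested. The fibroblast sum was 3442 CPM in rES p6, 1574 CPM in rES p30 without MM401, 1624 CPM in rES p30, 5161 CPM in ESC and 5360 CPM in EpiSC, and none of the 20 was at 0 in any group. Fewer cells of a type and less RNA per cell cannot be told apart in such bulk samples. The ribosomal precursor Rn45s took 0.35% to 2.00% of counts, the most in rES p30 replicate 2.

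Kmt2c, an enhancer H3K4 monomethyltransferase, had the widest range of the 6 genes. It stood at 132 and 126 CPM at MM401 day 3, 92.2 and 87.7 CPM at MM401 P2, 287 and 296 CPM in rES p6, 241 and 231 CPM in rES p30 without MM401, 333.1 and 333.2 CPM in rES p30, 194 and 195 CPM in ESC, and 57.8 and 60.2 CPM in EpiSC. No 2 groups overlapped, and the share of all genes for which this holds was not computed. The group means fell in the order rES p30, rES p6, rES p30 without MM401, ESC, MM401 day 3, MM401 P2, EpiSC. Each of the 6 steps between neighbours in that order passed the test, edgeR's quasi-likelihood F test with Benjamini-Hochberg adjustment over all genes at a threshold of 0.05, the smallest being rES p30 over rES p6 (log2 fold change 0.19 ± 0.04 standard error, adjusted p = 0.000173). In the comparisons of neighbours not taken up again below, the share of all genes called was 36.6% for rES p6 against rES p30 without MM401, 69% for rES p6 and 70.6% for rES p30 against MM401 day 3, 76.6% for rES p30 against P2, 71.2% for day 3 against ESC, and 69.5% and 76.3% for rES p30 without MM401 against day 3 and P2. The highest mean was 5.65 times the lowest. In a test for any difference among the 7 groups Kmt2c ranked 209 of 16247 genes by F, in a table where 97.6% of genes were called.

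Setd1b, a SET1-type enzyme, was the only other one of the 6 genes whose range passed 4-fold, at 4.43-fold. Its levels were 65.2 and 68.3 CPM at MM401 day 3, 41.6 and 39.6 CPM at P2, 107 and 106 CPM in rES p6, 65.4 and 63.2 CPM in rES p30 without MM401, 106 and 97.0 CPM in rES p30, 179.6 and 180.4 CPM in ESC, and 44.9 and 43.3 CPM in EpiSC. ESC stood apart at the top, the rES with MM401 came next, day 3 and rES without MM401 lay together in the middle, and EpiSC and P2 lay at the bottom. Differences between rES p6 and rES p30 (adjusted p = 0.353) and between MM401 day 3 and rES p30 without MM401 (adjusted p = 0.317) did not pass the test. Setd1b ranked 615 by F.

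Kmt2d, the partner of Kmt2c at enhancers, was highest in ESC. It measured 201 and 207 CPM at MM401 day 3, 213 and 214 CPM at P2, 283 and 281 CPM in rES p6, 193 and 193 CPM in rES p30 without MM401, 285 and 254 CPM in rES p30, 366 and 369.8 CPM in ESC, and 190.0 and 190.4 CPM in EpiSC. Its levels formed 3 tiers, ESC, then the 2 rES groups with MM401, then the other 4 groups. Within the lowest tier none of the 3 neighbouring steps passed the test (adjusted p from 0.0727 to 0.652), but wider steps did, with MM401 P2 at 0.17 (adjusted p = 0.000249) and day 3 at 0.10 (adjusted p = 0.0204) over EpiSC and rES p30 without MM401 at -0.15 (adjusted p = 0.00119) relative to P2. Kmt2b, the H3K4 trimethylase of developmental promoters, measured 197 and 197 CPM at MM401 day 3, 186 and 180.0 CPM at P2, 262 and 260.5 CPM in rES p6, 197 and 201 CPM in rES p30 without MM401, 245 and 227 CPM in rES p30, 278 and 279.9 CPM in ESC, and 147 and 153 CPM in EpiSC. ESC was highest and EpiSC lowest, and of the 6 neighbouring steps only that between rES p30 without MM401 and MM401 day 3 did not pass (adjusted p = 0.688). The highest mean exceeded the lowest 1.93-fold for Kmt2d and 1.86-fold for Kmt2b.

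Kmt2a, the gene of the MM401 target, did not share the low place of EpiSC seen in Kmt2b and Kmt2c. It stood at 105 and 101 CPM at MM401 day 3, 127 and 117 CPM at P2, 155 and 164 CPM in rES p6, 110.0 and 115 CPM in rES p30 without MM401, 166 and 165 CPM in rES p30, 162 and 162 CPM in ESC, and 140.4 and 155 CPM in EpiSC. MM401 day 3 was the lowest group and rES p30 the highest, 1.60-fold apart, and the steps from rES p30 to ESC (adjusted p = 0.603) and from ESC to rES p6 (adjusted p = 0.714) did not pass. Setd1a, the second SET1-type enzyme, was the flattest, at 174 and 176 CPM at MM401 day 3, 158 and 161 CPM at P2, 185 and 184 CPM in rES p6, 143 and 151 CPM in rES p30 without MM401, 171 and 170.5 CPM in rES p30, 209 and 209 CPM in ESC, and 163 and 161 CPM in EpiSC. ESC was highest and rES p30 without MM401 lowest, 1.42-fold apart, and 4 of its 6 neighbouring steps did not pass. By F these genes ranked 2504 (Kmt2d), 3314 (Kmt2b), 5454 (Kmt2a) and 8800 (Setd1a). In GENCODE M21, 51.8% of the Setd1a exons are shared with a gene on the same strand, Gm49388, and 2.27% of those of Kmt2a lie opposite an antisense gene, so their counts may hold or lack shared reads.

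**Figure D1:**
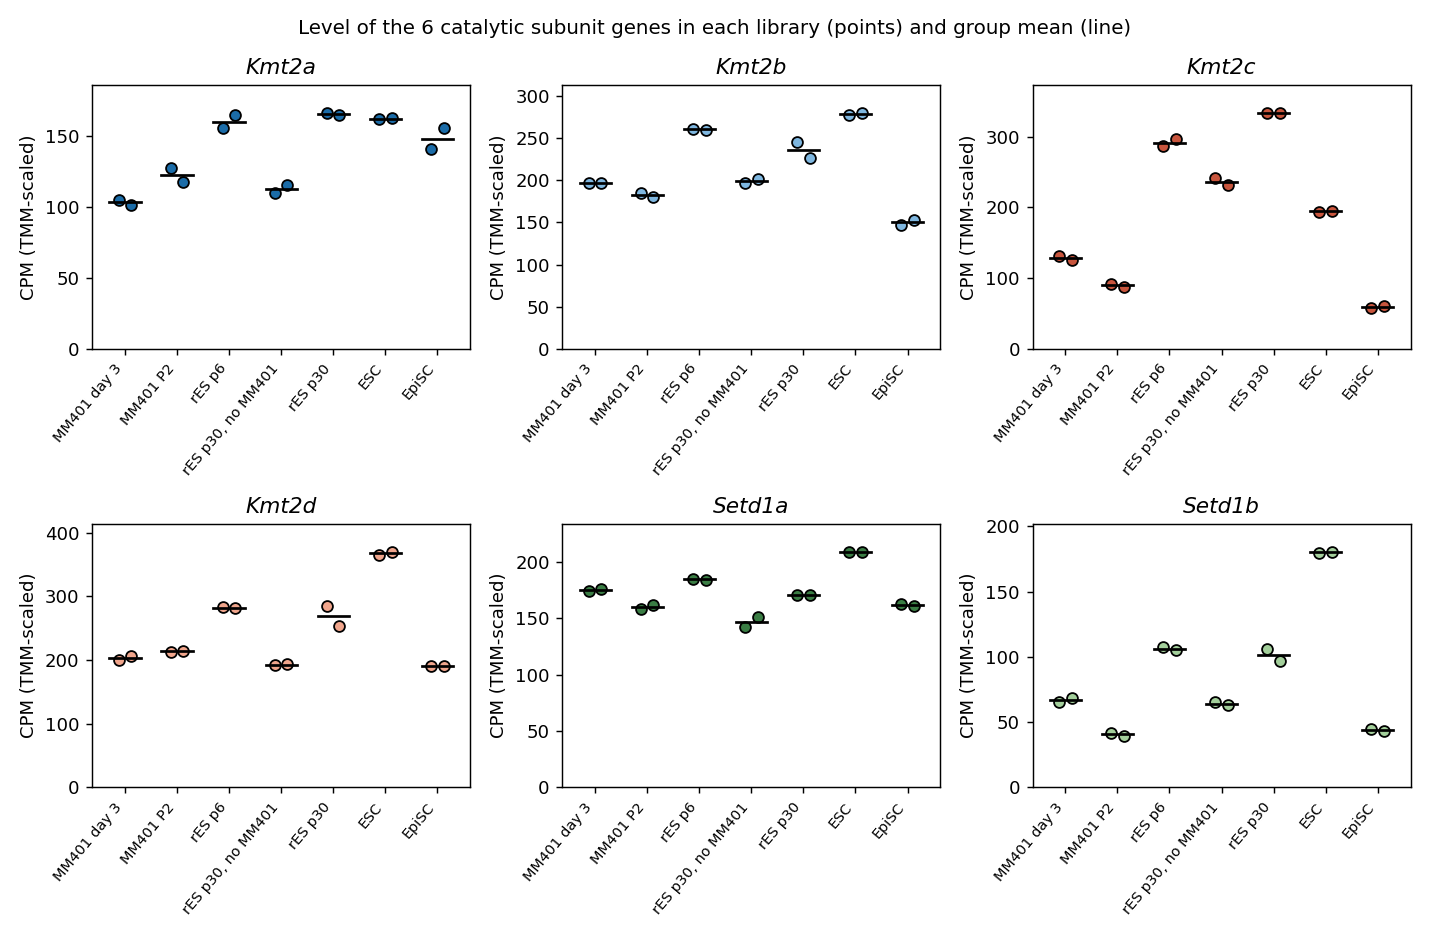
Level of each of the 6 genes in CPM of TMM-scaled library size (linear axes from 0) in the 7 groups; each point is a library and each line the mean of 2. Kmt2c averages 333 CPM in rES p30 and 59.0 CPM in EpiSC, while Setd1a stays between 147 and 209 CPM.

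All 6 genes were higher in ESC than in EpiSC. ESC stand for the naive state and EpiSC for the primed state. Their media differ too, with LIF for ESC and bFGF for EpiSC, so state and medium cannot be told apart. Of all genes tested 74.5% were called in it, 37% higher and 37.5% lower, with a median log2 fold change of -0.00. The log2 fold changes of ESC over EpiSC were 2.03 ± 0.05 for Setd1b (adjusted p = 8.51e-31), 1.72 ± 0.04 for Kmt2c (adjusted p = 1.59e-30), 0.95 ± 0.04 for Kmt2d, 0.89 ± 0.04 for Kmt2b, 0.37 ± 0.04 for Setd1a and 0.13 ± 0.05 for Kmt2a, with a median of 0.92. In each of the 3 pairs 1 gene had the larger value, Kmt2b over Kmt2a, Kmt2c over Kmt2d and Setd1b over Setd1a. The call of Kmt2a was lost without EpiSC replicate 1 (0.06, adjusted p = 0.346), without ESC replicate 2 (0.13, adjusted p = 0.0503) and with an offset for GC content (0.04). Scaled to library totals it was -0.02, where Setd1a was at 0.21.

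At MM401 day 3, 5 of the 6 genes were higher than in EpiSC and Kmt2a was lower, in a comparison where 76.6% of genes were called, 38.7% higher and 37.9% lower. Kmt2a fell by 0.52 ± 0.04 on the log2 scale (adjusted p = 1.90e-13), to a mean of 103 CPM at day 3 against 148 CPM in EpiSC. Kmt2c rose by 1.13 ± 0.04, Setd1b by 0.60 ± 0.05 and Kmt2b by 0.39 ± 0.04. Kmt2d (0.10 ± 0.04) and Setd1a (0.11 ± 0.04) passed the test with small differences. Scaled to library totals, which moved the median of all genes to -0.17 and the share of calls that were higher to 38.6%, against 50.6% with TMM, both were below 0 and not called and Kmt2b was at 0.21. The call of Kmt2d was also lost without either EpiSC library or without MM401 day 3 replicate 2 (adjusted p from 0.0687 to 0.124), and with DESeq2, thinning or an offset for GC content (0.07 to 0.09). The 3568 genes at least as long as Setd1a had a median of -0.13 at day 3. With an offset for exonic length the difference of Kmt2a was -0.25 and still called, and that of Kmt2d was 0.42.

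At MM401 P2, Kmt2c (0.61 ± 0.04), Kmt2b (0.28 ± 0.04) and Kmt2d (0.17 ± 0.04) were higher than in EpiSC and Kmt2a (-0.27 ± 0.04) and Setd1b (-0.12 ± 0.05) were lower. Of all genes 75.9% were called, 42.1% higher and 33.8% lower, and the median of all genes was 0.08. Scaled to library totals that median was -0.07, and higher genes made up 45.3% of calls against 55.5% with TMM. Setd1a did not pass (-0.02 ± 0.04, adjusted p = 0.666). The call of Setd1b was lost when either EpiSC library or MM401 P2 replicate 2 was left out (adjusted p from 0.0552 to 0.219), and with no filter, thinning or a length offset (-0.11 to -0.08). That of Kmt2d was lost with library totals (0.02) or an offset for GC content (0.07), and both settings called Setd1a lower (-0.16 and -0.11). Over library totals, length offset and GC offset, the value ran from -0.42 to -0.18 for Kmt2a and from -0.27 to -0.08 for Setd1b, and Kmt2b was at its lowest with library totals (0.14). All 20 fibroblast markers were higher at P2, with a summed level of 17973 CPM against 5360 CPM in EpiSC, and their part in these differences was not tested.

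Between the 2 treatment times, P2 differed from day 3 in 5 of the 6 genes, in a comparison with 70.8% of genes called, 37.5% higher and 33.3% lower. Kmt2a was higher at P2 (0.25 ± 0.04). Setd1b (-0.72 ± 0.05), Kmt2c (-0.52 ± 0.04), Setd1a (-0.13 ± 0.04) and Kmt2b (-0.10 ± 0.04) were lower at P2, and Kmt2d did not pass (0.07 ± 0.04, adjusted p = 0.113). With the exonic length offset the Kmt2a difference was 0.07 (adjusted p = 0.136), and Kmt2d was lower at P2 by the test (-0.14). The Kmt2b call was lost without MM401 P2 replicate 2 (-0.08, adjusted p = 0.0651) and with library totals (-0.08, adjusted p = 0.0561), which called Kmt2d higher at P2 (0.09), as thinning did (0.11). All 20 fibroblast markers were higher at P2 than at day 3 too, which was not separated from time or passage.

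In the rES, Kmt2c reached its highest levels. At rES p30 Kmt2c was 2.50 ± 0.04 above EpiSC on the log2 scale (adjusted p = 1.74e-36), Setd1b 1.20 ± 0.05, Kmt2b 0.65 ± 0.04, Kmt2d 0.50 ± 0.04 and Kmt2a 0.16 ± 0.05, while Setd1a did not pass (0.08 ± 0.04, adjusted p = 0.0763). Thus 5 of the 6 genes were higher, where 76.3% of genes were called and 38% were higher. The call of Kmt2a was lost without EpiSC replicate 1 (0.09, adjusted p = 0.153), with a length offset (0.05) and with library totals (0.01). Setd1a was at -0.08 with library totals and was called with an offset for GC content (0.10). At rES p6 all 6 genes were above EpiSC, with 73.8% of genes called and 38.7% higher, by 2.31 ± 0.04 for Kmt2c, 1.27 ± 0.05 for Setd1b, 0.80 ± 0.04 for Kmt2b, 0.57 ± 0.04 for Kmt2d, 0.19 ± 0.04 for Setd1a and 0.11 ± 0.05 for Kmt2a. That call of Kmt2a was lost without EpiSC replicate 1 (adjusted p = 0.532) or rES p6 replicate 2 (adjusted p = 0.290), and with RLE size factors, DESeq2 or a length or GC offset (0.04 to 0.07). Scaled to library totals its sign turned (-0.01), and Setd1a was not called (0.06). These comparisons and those of the treated cells share the EpiSC libraries.

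Set against ESC, rES p30 had more Kmt2c and less of most other members. Kmt2c was 0.78 ± 0.04 higher (adjusted p = 2.06e-20), at 333 CPM in rES p30 against 194 CPM in ESC. Setd1b (-0.82 ± 0.05), Kmt2d (-0.45 ± 0.04), Setd1a (-0.29 ± 0.04) and Kmt2b (-0.24 ± 0.04) were lower, and Kmt2a did not pass (0.03 ± 0.05, adjusted p = 0.603). In this comparison 71.1% of genes passed, 35.3% being higher and 35.8% lower. Under an offset for GC content the values were -0.17 for Setd1a, -0.13 for Kmt2b and 0.11 for Kmt2a (adjusted p = 0.0232). At rES p6, where 69.3% of genes were called against ESC, 36.3% higher and 33% lower, the same 5 genes had the same signs, with Kmt2c at 0.58 ± 0.04, Setd1b at -0.76 ± 0.05, Kmt2d at -0.38 ± 0.04, Setd1a at -0.18 ± 0.04 and Kmt2b at -0.10 ± 0.04. The Kmt2b call at rES p6 was lost whichever of the 4 libraries was left out (adjusted p from 0.0771 to 0.111) and with library totals (-0.07). The fibroblast markers were lower in rES p30 than in ESC in 19 of 20 cases, and their part was not tested.

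Between rES p30 and rES p6, 25.6% of genes were called, 11.3% higher and 14.4% lower at p30. Kmt2c was higher at p30 (0.19 ± 0.04), and Kmt2b (-0.14 ± 0.04) and Setd1a (-0.11 ± 0.04) were lower, while Kmt2a (0.05 ± 0.05), Kmt2d (-0.07 ± 0.04) and Setd1b (-0.07 ± 0.05) did not pass. The Setd1a call was lost with RLE size factors, DESeq2, no filter, a length or GC offset, and whichever of the 4 libraries was left out. That of Kmt2b was lost without rES p30 replicate 2 (-0.09, adjusted p = 0.160) and with the GC offset (-0.02, adjusted p = 0.744). Kmt2d was called lower without rES p30 replicate 1 (-0.14) and with the length offset (-0.12). All 20 fibroblast markers were lower at p30, with a summed level of 1624 CPM against 3442 CPM at p6, and their part in these differences was not tested. Higher genes made up 43.9% of the calls with TMM, 33.3% with library totals, 54.3% with RLE size factors, 55.5% with the length offset and 58.4% with an offset for GC content.

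**Figure D2:**
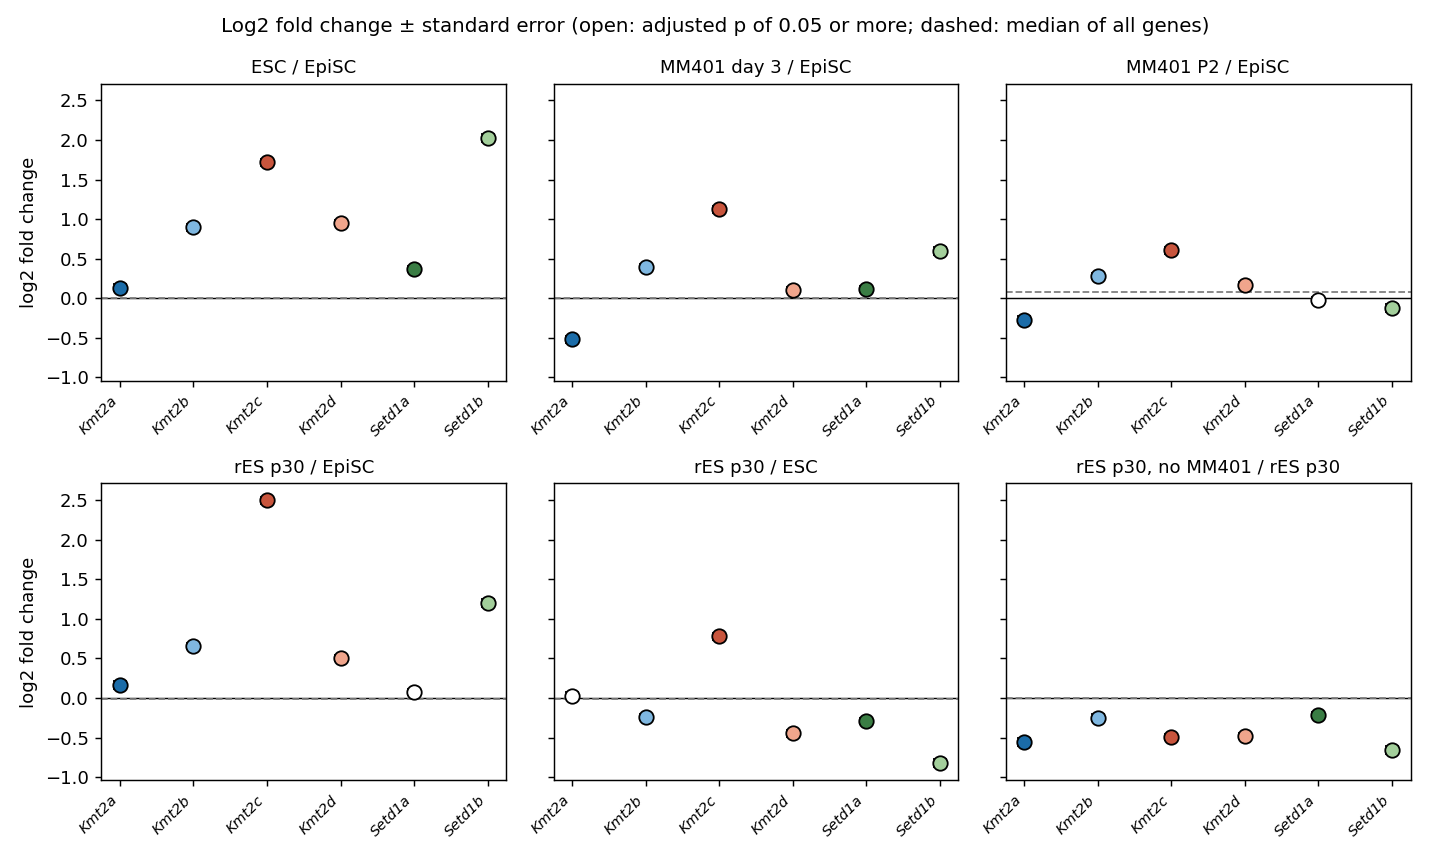
Log2 fold changes with standard errors (mostly smaller than the points) of the 6 genes in 6 comparisons; open points did not pass the test and the dashed line is the median of all genes. Kmt2c is at or near the top of all 5 comparisons with EpiSC or ESC, and all 6 genes lie below 0 after withdrawal of MM401.

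All 6 genes were lower in rES at passage 30 after withdrawal of MM401. Relative to rES p30, the log2 fold changes of rES p30 without MM401 were -0.66 ± 0.05 for Setd1b, -0.55 ± 0.05 for Kmt2a, -0.50 ± 0.04 for Kmt2c, -0.48 ± 0.04 for Kmt2d, -0.25 ± 0.04 for Kmt2b and -0.22 ± 0.04 for Setd1a, with adjusted p from 3.68e-12 to 8.21e-05. Of all genes 19.7% were called, 10.4% higher and 9.32% lower, and the median of all genes was -0.00. The libraries of both groups did not overlap for any of the 6, and the share of all genes without overlap was not computed. After withdrawal Kmt2d stood at 193 CPM, against 190.2 CPM in EpiSC, a difference that did not pass the test (0.02 ± 0.04, adjusted p = 0.652), and Kmt2a, at 113 CPM, was below EpiSC, at 148 CPM (-0.39 ± 0.05). Kmt2c, at 236 CPM, was still 2.00 ± 0.04 above EpiSC, in a comparison with 76.5% of genes called. Against ESC, with 71.4% of genes called, 36.3% higher and 35% lower, rES p30 without MM401 had lower Setd1b (-1.49 ± 0.05), Kmt2d (-0.93 ± 0.04), Kmt2a (-0.52 ± 0.05), Setd1a (-0.51 ± 0.04) and Kmt2b (-0.49 ± 0.04), and higher Kmt2c (0.28 ± 0.04).

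The 6 genes are long, and the withdrawal difference of all genes moved with length. Exonic lengths were 20.29 kb for Kmt2c, 19.93 kb for Kmt2d, 16.67 kb for Kmt2a, 12.07 kb for Setd1b, 9.596 kb for Kmt2b and 6.795 kb for Setd1a. Across 15465 genes with a length, the Spearman correlation of length with the log2 fold change was -0.26, given as a description since genes are not independent replicates. In the shortest 10% of genes the median log2 fold change was 0.10 and 1.87% were lower, and in the longest 10% the median was -0.13 and 30.1% were lower. Of the 3568 genes at least as long as Setd1a, 22.4% were lower and 3.7% were higher. With an offset for exonic length, chosen after the data were seen, the 6 genes were at -0.54 (Setd1b), -0.38 (Kmt2a), -0.29 (Kmt2c), -0.28 (Kmt2d), -0.18 (Setd1a) and -0.16 (Kmt2b). All 6 stayed lower and called with that offset, under every other alternative tried and with each library left out. The chi-square per degree of freedom between replicates was 3.22 in rES p30 without MM401 and 16.6 in rES p30, the largest of the 7 groups. It was computed with Rn45s kept in, which took 0.548% and 2.00% of counts in the 2 rES p30 libraries. A value without Rn45s was not computed, so how far Rn45s accounts for it is not known.

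**Figure D3:**
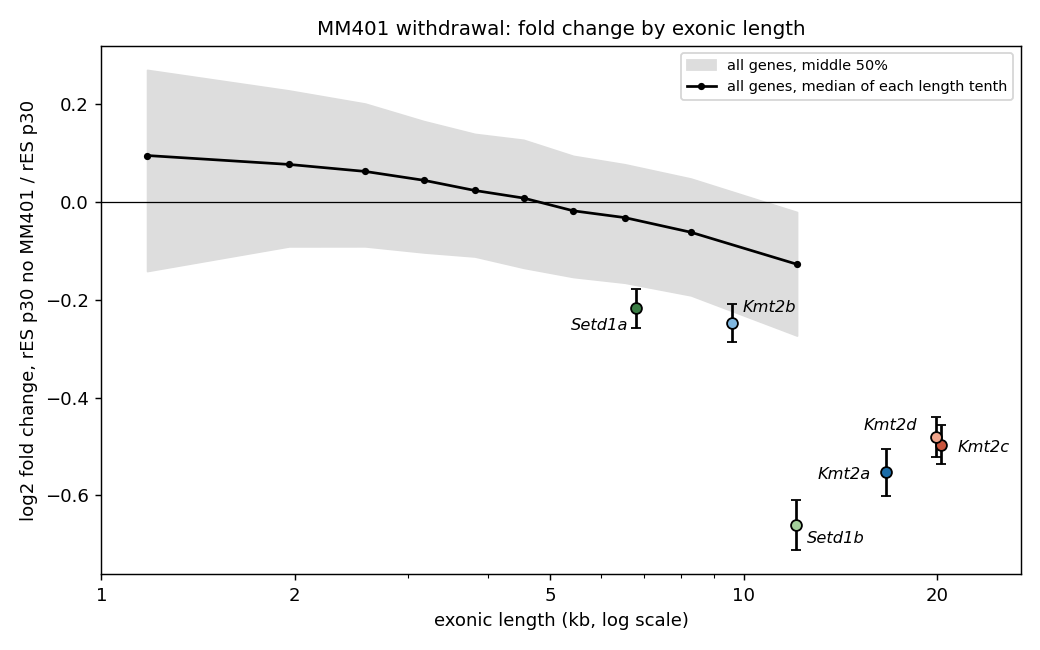
Log2 fold change of rES p30 without MM401 over rES p30 against exonic length (log axis, kb). The line joins the medians of 10 bins of all genes by length and ends at 12.1 kb, and the band holds their middle 50%. Coloured points are the 6 genes with standard errors. Setd1a, Kmt2b and Setd1b lie below the line, with Kmt2b and Setd1a nearest to it. Kmt2a, Kmt2d and Kmt2c lie beyond its end and lower than its last point.

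Per length, the balance within the family differed between the groups. Dividing CPM by exonic length, the 6 genes summed to 74.6 ± 0.3 CPM per kb at MM401 day 3, 68.4 ± 0.8 at P2, 101 ± 0.3 in rES p6, 75.8 ± 1.0 in rES p30 without MM401, 98.0 ± 3.1 in rES p30, 112 ± 0.4 in ESC and 64.4 ± 0.9 in EpiSC (SD, n = 2). The share of Kmt2c in that sum was 8.51% ± 0.30 at MM401 day 3, 6.48% ± 0.16 at P2, 14.2% ± 0.28 in rES p6, 15.4% ± 0.64 in rES p30 without MM401, 16.8% ± 0.53 in rES p30, 8.52% ± 0.01 in ESC and 4.51% ± 0.07 in EpiSC. Setd1a held 25.6% ± 0.76 in rES p30, 27.3% ± 0.09 in ESC and 37.0% ± 0.72 in EpiSC, its largest share. Kmt2a made up 8.30% ± 0.23 at day 3 and 13.8% ± 0.78 in EpiSC, and Setd1b 13.3% ± 0.00 in ESC and 5.67% ± 0.22 in EpiSC. Shares depend on the transcript length assumed for each gene, which was taken as the union of its exons. Sums, shares and ratios are given as descriptions with no test. Between 2 groups of 2 libraries an exact permutation test cannot go below p = 0.333.

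**Figure D4:**
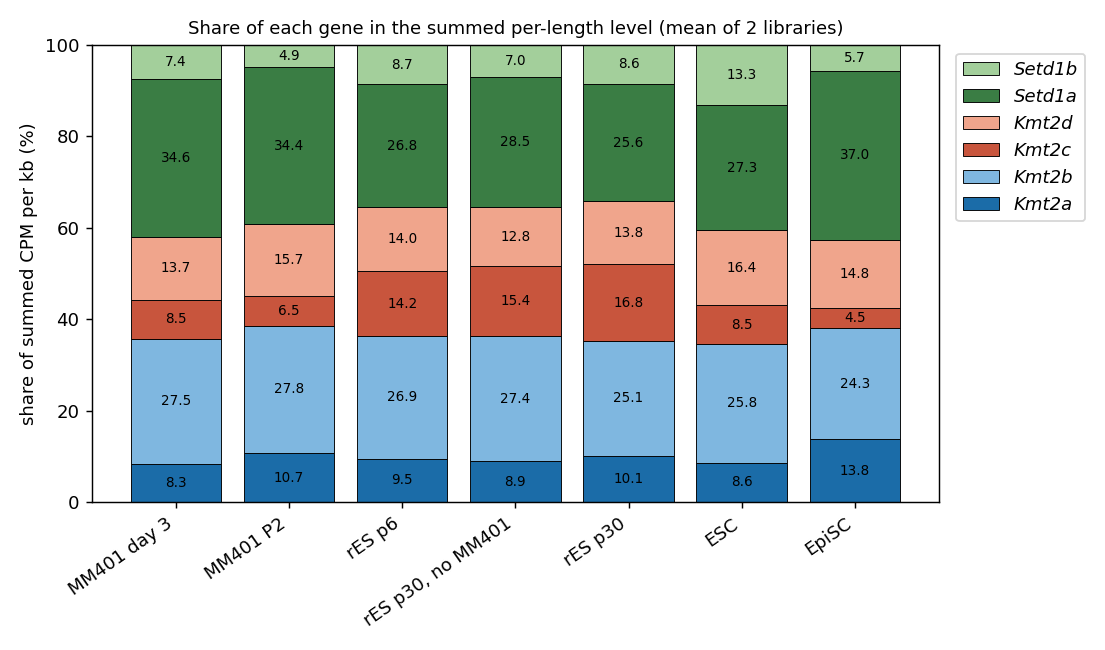
Share of each of the 6 genes in their summed CPM per kb (percent, stacked to 100), as the mean of 2 libraries in each group. The Kmt2c block is thickest in rES p30 (16.8%) and thinnest in EpiSC (4.51%), and the Setd1b block is thickest in ESC (13.3%).

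Ratios within a library, which do not depend on scaling between libraries, put the pairs in different places. The ratio of Kmt2c to Kmt2d per length was 0.644 and 0.597 at MM401 day 3, 0.425 and 0.403 at P2, 0.994 and 1.04 in rES p6, 1.23 and 1.18 in rES p30 without MM401, 1.15 and 1.29 in rES p30, 0.521 and 0.518 in ESC, and 0.299 and 0.310 in EpiSC. The rES libraries lay above all others, and those with and without MM401 at passage 30 overlapped. The ratio of Kmt2a to Kmt2b lay between 0.297 and 0.418 in the 12 libraries of the other groups, and was 0.548 and 0.585 in EpiSC. For Setd1b to Setd1a it was 0.484 and 0.486 in ESC, and at most 0.350 elsewhere. The lowest ratios of that pair were 0.148 and 0.138 at MM401 P2 and 0.156 and 0.151 in EpiSC. Such a ratio shows that 2 genes changed unequally and not which of them moved.

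**Figure D5:**
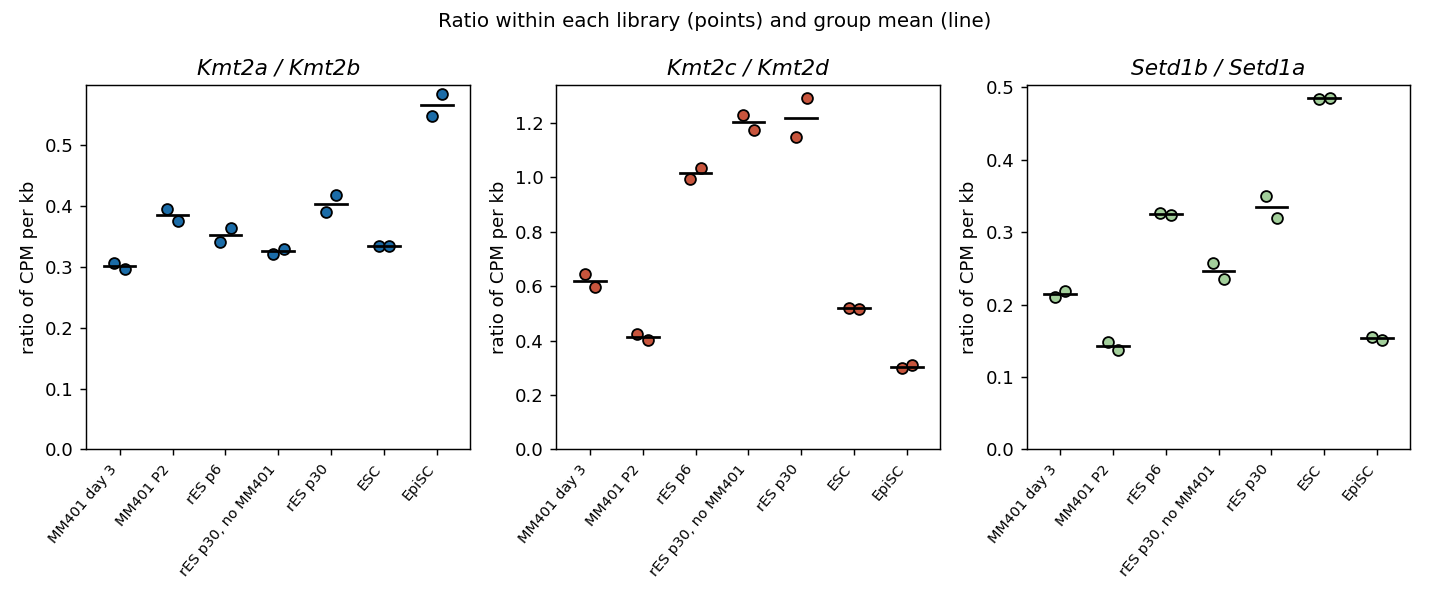
Ratio of CPM per kb within each library for 3 pairs (points, lines the mean of 2; axes from 0). Kmt2a over Kmt2b is highest in EpiSC, Kmt2c over Kmt2d is highest in the rES, and Setd1b over Setd1a is highest in ESC.

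Across the 14 libraries the 6 genes fell into no single pattern. By Pearson r of log2 CPM, Kmt2b and Setd1b (0.93), Kmt2d and Setd1b (0.91), Kmt2b and Kmt2d (0.90) and Kmt2d and Setd1a (0.87) were most alike, and Kmt2c was least like Setd1a (0.25) and Kmt2a (0.32). Libraries of a group share their culture and all share the scaling, so these values describe the 7 groups more than 14 independent points. Among 10182 other genes of at least 10 CPM on average, the nearest 3 were Yes1, Grik3 and Dnah10 for Kmt2c (r from 0.984 to 0.988), Asxl1, Gtf3c2 and Slc9a8 for Setd1b (0.970 to 0.978), and Degs1, Ist1 and Fbrs for Kmt2b (0.969 to 0.976). They were Nup214, Ndor1 and Ttc13 for Setd1a (0.928 to 0.945), and Rere, Hivep1 and Flt4 for Kmt2a (0.887 to 0.934). Yes1, a Src-family kinase, averaged 181 CPM in rES p30, 132 CPM in ESC and 61.0 CPM in EpiSC. Yes1 was picked for its likeness to Kmt2c in these libraries, so sharing the order of Kmt2c in these 3 groups adds no support.

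The WRAD core, which all 6 enzymes use, was higher in most comparisons with EpiSC. All 4 core genes were higher at MM401 day 3 than in EpiSC, where 38.7% of all genes were, by 1.45 ± 0.03 for Wdr5, 1.24 ± 0.05 for Rbbp5, 0.85 ± 0.04 for Ash2l and 0.81 ± 0.05 for Dpy30, in the same libraries in which Kmt2a was lower. Wdr5, the subunit that MM401 keeps from Mll1, had 567 and 569 CPM at day 3, against 209 and 207 CPM in EpiSC. All 4 were also higher than in EpiSC in ESC (median 0.57, with 37% of all genes higher), MM401 P2 (0.59, with 42.1% higher) and rES p30 (0.57, with 38% higher). The smallest of these differences was that of Dpy30 in rES p30 (0.13 ± 0.05). Scaled to library totals, the median of all genes in that comparison was -0.17, against -0.02 with TMM, so that call may depend on the scaling. At rES p6, where 38.7% of all genes were higher, 3 of 4 were, Dpy30 having a value of -0.04 ± 0.05. After withdrawal of MM401, where 19.7% of all genes were called, 0 of 4 were called by edgeR and 0 by DESeq2, with 1 of 4 at an unadjusted p under 0.05 (Wdr5, 0.08 ± 0.03), and 1 was called higher with library totals. Their exonic lengths were 1.146 kb (Dpy30) to 8.969 kb (Ash2l), so 3 of the 4 were shorter than any of the 6 enzyme genes.

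Among 12 partners found in only some of these complexes, 8 were higher and 2 lower in ESC than in EpiSC, where 37% of all genes were higher and 37.5% lower. Wdr82, which belongs to the SET1 complexes, was at 1.08 ± 0.04 and Psip1, a chromatin reader bound by menin and Mll1, at -1.05 ± 0.04. At MM401 day 3, 5 were higher and 3 lower, against 38.7% and 37.9% of all genes, with Wdr82 at 1.02 ± 0.04 and Men1, which encodes menin, at -0.24 ± 0.05. At MM401 P2, 3 were higher and 7 lower, against 42.1% and 33.8% of all genes, with Hcfc1 at -0.62 ± 0.03 and Psip1 at -0.55 ± 0.04. In rES p30 against ESC, 5 were higher and 6 lower, against 35.3% and 35.8% of all genes, and Cxxc1 (-0.68 ± 0.06), the CpG-binding subunit of the SET1 complexes, was lower as Setd1a and Setd1b were. Of the partners of Kmt2c and Kmt2d, Ncoa6 (0.60 ± 0.05), Kdm6a (0.29 ± 0.05) and Paxip1 (0.21 ± 0.05) were higher in that comparison and Pagr1a (-0.16 ± 0.06) was lower. After withdrawal, 1 was higher and 3 lower, with 19.7% of all genes called, among them Hcfc1 at -0.38 ± 0.03 and Ncoa6 at -0.30 ± 0.05.

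Other genes of H3K4 methylation were called in both directions. Of 5 other SET domain genes linked to H3K4, 2 were higher and 3 lower in ESC than in EpiSC, against 37% and 37.5% of all genes. The same counts were found at MM401 day 3, against 38.7% and 37.9% of all genes, and at P2, against 42.1% and 33.8%. Setd7, which methylates H3K4 in vitro, was 1 of those lower (-1.96 ± 0.06 in ESC and -2.46 ± 0.06 at day 3), and Smyd3 was higher (1.24 ± 0.08 and 1.34 ± 0.07). Of 6 H3K4 demethylases, 4 were higher and 2 lower in ESC than in EpiSC, against the same 37% and 37.5%, with Kdm5b, a demethylase of trimethylated H3K4, at 1.80 ± 0.04. Against EpiSC, Kdm5b was also higher at MM401 day 3 (1.54 ± 0.04) and in rES p30 (1.83 ± 0.04). Of 9 genes known as targets of Mll1 or menin in other cells, 4 were higher and 2 lower at MM401 day 3 than in EpiSC, against 38.7% and 37.9% of all genes. At MM401 P2, with 75.9% of all genes called and 42.1% higher, 7 were higher and 2 lower, with Hoxa10 at 2.76 ± 0.16 and Meis1 at 1.53 ± 0.12, beside the rise of all 20 fibroblast markers, whose part was not tested. After withdrawal of MM401 1 of the 9 was called, Cdkn1b, which was higher (0.23 ± 0.06), against 19.7% of all genes.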

How the data were processed

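The only measurements used are raw read counts per gene symbol, in the table the authors deposited. Per the labels' protocols, RNeasy columns with DNase gave the RNA, and Illumina TruSeq libraries were read from 1 end. In the submitters' processing notes the names TopHat2, Subread, DESeq and mm9 appear, without roles or versions. No source used here gives the strand or the treatment of reads with several placements. Libraries of a group are biological duplicates per the design text. The p-values rest on the spread within groups, estimated in 1 fit over all 14 libraries. Chi-square per degree of freedom between replicates was 1.28 in ESC, 1.35 in rES p6 and 1.54 in EpiSC, where counting alone gives 1. It was larger in the deeper libraries, at 7.68 for MM401 day 3 and 8.84 for MM401 P2. Spread between independent cultures may be larger than these pairs show. A further 2 columns matched no sample and were left unused, and 27 symbols are dates (at most 0.254% of counts). Exons shared with other genes (Setd1a, Kmt2a) may have split reads.

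Counts were filtered with filterByExpr, scaled with TMM and fitted in R 4.3.3 with edgeR 4.0.16 (robust quasi-likelihood F test, 1 mean per group over all 14 libraries). Calls are two-sided at a Benjamini-Hochberg adjusted p under 0.05 within a comparison. Rose and fell refer to calls, and the standard error is the absolute log2 fold change over the square root of F. Levels per length used the union of exons in GENCODE M21, and promoters came from RefSeq. Likeness used log2 CPM with a prior count of 2. The pipeline was tested on simulated data. Alternatives were RLE size factors, library totals, no filter, DESeq2 1.42.0, a replicate block, the 4 libraries compared, each library left out, thinning, leaving out Rn45s, and other transcript lengths. Offsets for length or GC content and a fit without the 4 deeper libraries were chosen after seeing the data. Named genes are the 6 enzymes, the WRAD core, up to 4 called members of each other list by smallest adjusted p, and the 3 most alike genes of each enzyme (those of Kmt2d are not reported here). The enzymes and lists were chosen with earlier results of these data known.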

Additional observations from a re-analysis of the deposited data

Results flagged for a closer look

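A total of 8 differences between stages of 1 treatment passed edgeR's quasi-likelihood test with Benjamini-Hochberg adjustment. Of all genes, 70.8% were called in P2 against day 3 and 25.6% in rES p30 against rES p6. Since both stages are set against the same EpiSC, testing P2 against day 3 is the same as testing whether the difference from EpiSC changed. P2 against day 3 gave log2 fold changes of 0.25 for Kmt2a (adjusted p = 2.66e-06), -0.10 for Kmt2b (adjusted p = 0.00990), -0.52 for Kmt2c (adjusted p = 2.01e-15), -0.13 for Setd1a (adjusted p = 0.00110) and -0.72 for Setd1b (adjusted p = 1.93e-17). Both libraries of P2 lay on the same side of both libraries of day 3 for all 5 genes. The share of all genes with such a separation was not computed. These 5 genes were picked by the test on the same libraries, so the separation adds no support. The Kmt2a call was lost with the length offset (0.07, adjusted p = 0.136), and the Kmt2b call without MM401 P2 replicate 2 (adjusted p = 0.0651) and with library totals (adjusted p = 0.0561). The fibroblast markers summed to 17973 CPM at P2 and 6186 CPM at day 3, and their part was not tested.

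Passage 30 against passage 6 of the rES with MM401 gave -0.14 for Kmt2b (adjusted p = 0.00446), 0.19 for Kmt2c (adjusted p = 0.000173) and -0.11 for Setd1a (adjusted p = 0.0283). The Setd1a call was lost without any 1 of the 4 libraries and with RLE size factors, DESeq2, no filter or a length or GC offset, and the Kmt2b call without rES p30 replicate 2 (adjusted p = 0.160) and with the GC offset (adjusted p = 0.744). The fibroblast markers summed to 1624 CPM at p30 and 3442 CPM at p6, and their part was not tested.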

How the results depend on the processing

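Of 972 recomputed log2 fold changes of the 6 genes, 904 kept their direction and their side of the threshold, 46 lost the call, 8 gained it and 14 changed sign. The 6 lower calls after withdrawal of MM401 held under all alternatives run. Scaled to library totals, values of opposite sign were -0.020 (Kmt2a, ESC against EpiSC), -0.074 (Kmt2d) and -0.060 (Setd1a) at day 3 against EpiSC, -0.012 (Kmt2a, rES p6 against EpiSC), -0.079 (Setd1a, rES p30 against EpiSC) and 0.0081 (Kmt2a, rES p6 against ESC). The others were 0.0019 (Setd1a, P2 against EpiSC, no filter), -0.056 (Kmt2a, rES p30 against ESC) and -0.14 (Kmt2d, P2 against day 3) with the length offset, and 0.032 (Kmt2a, rES p6 against ESC), 0.053 (Kmt2d) and 0.057 (Setd1b, both rES p30 against p6) with the GC offset. With 1 library left out, Kmt2a in rES p6 against ESC ran from -0.063 to 0.022 and Kmt2d in rES p30 against p6 from -0.14 to 0.013.

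The count of the 6 genes called lower in rES p30 against p6 was 2, and 1 with RLE size factors, no filter or DESeq2, 0 with the GC offset, and 0 to 2 with a library left out. Lower at P2 against EpiSC were 2, and 1 with no filter, thinning or the length offset, and 1 to 2 with a library left out. Higher at day 3 against EpiSC were 5, and 3 with library totals. Higher at P2 against day 3 was 1, against 2 with library totals or thinning and 0 with the length offset, and higher in rES p30 against ESC was 1, against 2 with the GC offset. With a library left out, 2711 to 3619 genes were called in rES p30 against p6 (4167 with all) and 1993 to 2751 after withdrawal (3203 with all). Fewer libraries were tested in these fits. Other causes were not tested.

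Mean shares per length over the 7 groups were 9.99% (Kmt2a), 26.4% (Kmt2b), 10.6% (Kmt2c), 14.4% (Kmt2d), 30.6% (Setd1a) and 7.94% (Setd1b). With the longest transcript they were 9.06%, 26.7%, 12.8%, 13.0%, 28.7% and 9.65% in the same order, and with the median transcript 3.97%, 32.3%, 4.45%, 32.1%, 25.3% and 1.80%, so levels between genes rest on the length chosen. Replicate numbers did not pair the libraries, with correlations of same-numbered deviations from -0.031 to 0.040 over 21 pairs of groups, and a replicate block changed none of the 66 calls (12048 genes called with the block in ESC against EpiSC, 12104 without).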
